A study of Mus musculus with 6 samples.

Results

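The genes described here mark the birth of neurons in the adult dentate gyrus, from dividing progenitor to young granule neuron. They are Neurog2, Eomes, Neurod1, Sox4, Sox11, Igfbpl1, Dcx, Cd24a, Tubb2b and Stmn1, 10 of the 18193 genes with a probe set of their own on the array. They were chosen by name, with earlier results of these data known. Every probe set annotated to exactly 1 of these symbols was taken, which gave 31 of 45037 probe sets. A further probe set lists Tubb2b together with another symbol and was left out by this rule. Hippocampal RNA of adult male mice was read on Affymetrix Mouse Genome 430 2.0 arrays. Each sample had its own array, and the groups were 3 wild type and 3 L26 transgenic samples. L26 mice are homozygous for daDREAM, a dominant active form of the calcium-regulated repressor DREAM, the product of Kcnip3, and the wild type mice were littermates on the same C57B6xCBA background. L26 is a single line, and the promoter that drives its transgene is not given in the sources used here. The titles number the samples within each group, and the series text calls them independent biological replicates. The question is whether genes of adult neurogenesis differ at rest when daDREAM is present.

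New granule neurons arise throughout life in the subgranular zone of the dentate gyrus. Radial glia-like stem cells give rise to dividing intermediate progenitors that carry the transcription factors Neurog2 and Eomes. Neurod1 and the SoxC factors Sox4 and Sox11 then accompany neuronal commitment, and doublecortin (Dcx), Cd24a and a growing cytoskeleton rich in Tubb2b and Stmn1 mark the migrating and extending young neuron. The cells concerned are few in adult hippocampus, and several of these genes are active in other cells too. In whole-tissue RNA, fewer cells of a type and less RNA per cell cannot be told apart.

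In L26 hippocampus, Neurog2, Cd24a and Tubb2b were higher than in wild type by 1.39-fold, 1.33- to 1.48-fold and 1.26-fold, and Stmn1 was lower by 1.22-fold. Eomes, Neurod1, Sox4 and Dcx did not pass the test on any probe set. A single Sox11 probe set fell by 4.68-fold while the other 5 did not pass. In all, 7 of the 31 member probe sets passed an adjusted p of 0.05 (limma, adjusted over all 45037 probe sets), 5 higher and 2 lower in L26, where 3.92% of all probe sets passed, 1.98% higher and 1.94% lower. With arrays centred on their medians the balance over all probe sets was 717 higher and 1149 lower in place of 892 and 872, and that of the members 5 and 3. With 1 probe set per gene, that with the highest mean over the 6 arrays, 5 of 10 genes passed, 4 higher (Neurog2, Cd24a, Tubb2b and Igfbpl1) and 1 lower (Stmn1), where 5.19% of all genes passed, 2.63% higher and 2.57% lower. That count of 5 was 3 without wild type replicate 2 and 2 without L26 replicate 2. In these fits 520 and 401 of all 18193 genes passed, in place of 945. In the count of 5 genes Sox11 was read by 1453125_at, not by the probe set that fell. The median difference of the 31 probe sets was 0.14 on the log2 scale, beside 0.013 for all probe sets. The L26 and wild type values did not overlap on 18 of the 31, against 21.9% of all probe sets. They did not overlap for 6 of the 10 genes, against 24.1% of all genes. Since the members were chosen with earlier results of these data known, the shares are descriptions and not a test of the set.

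**Figure D1:**
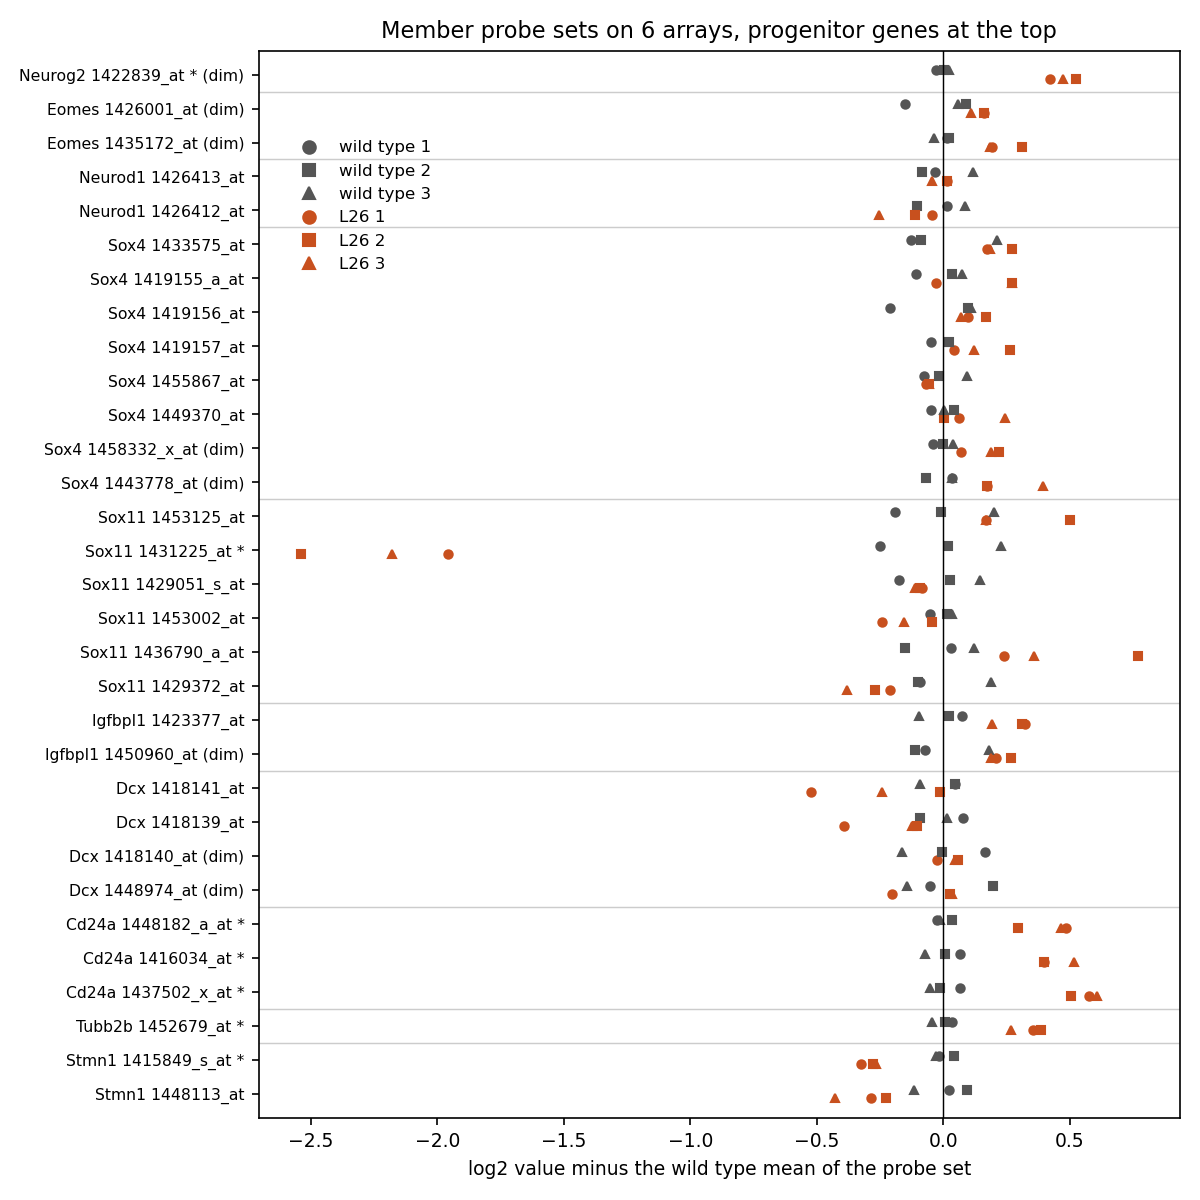
Log2 expression value of each member probe set on each of the 6 arrays, minus the mean of the 3 wild type arrays (grey, replicate by symbol) with the 3 L26 arrays in orange; genes run from progenitor at the top to young neuron at the bottom, an asterisk marks an adjusted p under 0.05, and "dim" a level in the range of near-silent genes. The Sox11 probe set 1431225_at has a mean difference of -2.23 from wild type, the 3 Cd24a probe sets have 0.42 to 0.56, and the mean differences of the other probe sets lie between -0.31 and 0.47.

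Array medians lay between 7.27 and 7.29 in wild type and 7.30 and 7.32 in L26, and arrays correlated at 0.9971 to 0.9979 within a group and 0.9944 to 0.9958 between groups across probe sets. The labels and the deposited table give no batch. Kcnip3 itself has 2 probe sets, with -0.17 (adjusted p = 0.208, limma) and -0.32 (adjusted p = 0.0393, limma) in L26, and whether they cover the transgene's part of the transcript is not known here.

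The deposited values carry no detection calls, so levels were set against 80 probe sets of olfactory and vomeronasal receptor genes, which stand for near-silent genes in hippocampus. Their median was 5.23 and their 95th percentile 6.71 on the log2 scale, and a probe set with a mean below the latter is called dim. By this measure 8 of the 31 member probe sets were dim, and both progenitor genes, Neurog2 and Eomes, had no probe set above the limit. Dcx, Sox4 and Igfbpl1 each had at least 1 dim and 1 brighter probe set. Neurod1, Sox11, Cd24a, Tubb2b and Stmn1 had none that was dim. Stmn1, a microtubule-destabilising phosphoprotein, lay at the other end, with a mean of 13.60 on 1415849_s_at, above 99.6% of all probe sets. Differences of dim probe sets can come out smaller than they are, since much of the signal is background. Whether a dim probe set reads its transcript, or background only, was not tested.

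**Figure D2:**
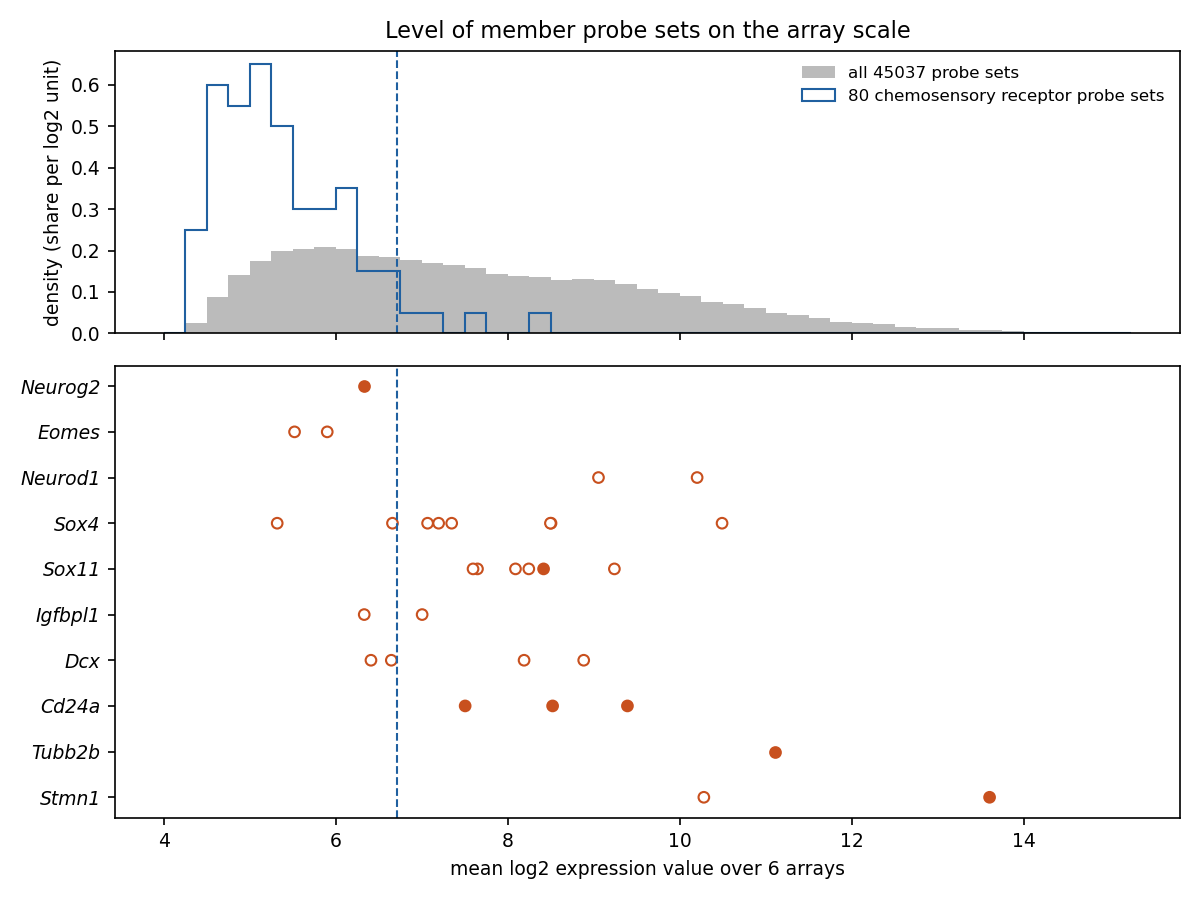
Top, distribution of the mean log2 value over 6 arrays for all 45037 probe sets (grey) and for 80 chemosensory receptor probe sets (blue outline); bottom, mean log2 value of each member probe set by gene, filled where the adjusted p was under 0.05. The dashed line is the 95th percentile of the chemosensory receptors, 6.71, and the Neurog2 and Eomes probe sets all lie to its left.

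The promoter table of RefSeq (build GRCm38.p6) holds 6 of the 10 members, namely Neurog2, Eomes, Neurod1, Sox4, Sox11 and Dcx. DREAM binds a downstream regulatory element whose core is GTCA, so the 250 bases before each start were searched for GTCA on both strands. Bases after the start were not searched, so 0 matches here does not mean that a gene lacks the element. Of 32851 such windows, 80.2% hold at least 1 match, and the median window holds 2. The windows of Neurog2 and Sox11 are printed because these are the members of the table with a probe set that passed (for Sox11 1 of 6). Capitals mark GTCA or its reverse complement TGAC. The Neurog2 window, chr3:127632886-127633135 on the plus strand, holds 0 matches, and the Sox11 window, chr12:27342719-27342968 on the minus strand, holds 2. Both are written 5′ to 3′ in the direction of the gene.
Neurog2: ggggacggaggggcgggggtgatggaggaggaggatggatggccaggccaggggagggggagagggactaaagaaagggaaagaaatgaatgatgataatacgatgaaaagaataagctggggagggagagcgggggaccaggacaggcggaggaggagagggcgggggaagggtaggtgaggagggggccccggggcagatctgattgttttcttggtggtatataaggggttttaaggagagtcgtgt
Sox11: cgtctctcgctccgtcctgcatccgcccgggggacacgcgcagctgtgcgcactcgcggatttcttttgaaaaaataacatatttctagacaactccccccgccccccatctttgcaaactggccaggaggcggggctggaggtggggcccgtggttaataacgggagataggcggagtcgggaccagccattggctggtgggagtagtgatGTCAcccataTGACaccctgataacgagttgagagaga

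Eomes and Sox4 hold 1 match each, Neurod1 holds 0, and Dcx holds 0 in the windows of both its listed starts. The E-box CANNTG, which proneural factors such as Neurog2 and Neurod1 bind, occurs in 66.2% of all windows. Among the members it was found in Sox11 (2 matches), Sox4 (1) and Neurod1 (1), and not in Neurog2, Eomes or Dcx. The SOX core ACAAAG, present in 16.5% of all windows, was found in 1 of the 2 Dcx windows. In these windows matches of different motifs overlapped 1 time, in Sox11, where an E-box ends in the first bases of TGAC. A match describes the letters only.

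Neurog2, a proneural basic helix-loop-helix factor of intermediate progenitors, was read by a single probe set, 1422839_at. The wild type arrays read 6.06, 6.09 and 6.11 and the L26 arrays 6.51, 6.61 and 6.56. The groups did not overlap, and the gap between them was wider than the spread within either. The group means of 6.09 ± 0.0252 and 6.56 ± 0.05 (SD, n = 3) differed by 0.47, with SE 0.06 (limma, adjusted p = 0.00177). Over the 10 alternatives that could be run for this probe set the difference lay between 0.44 and 0.50, and the call was kept in each. The level is in the dim range, above 32.6% of all probe sets.

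Eomes (Tbr2), the T-box factor of the same progenitors, has 2 dim probe sets. On 1435172_at wild type read 5.42, 5.43 and 5.37 and L26 5.60, 5.72 and 5.59. On 1426001_at wild type read 5.68, 5.92 and 5.89 and L26 5.99, 5.99 and 5.94. On both the L26 values lay above all wild type values, by little on the second. The differences of 0.23 (SE 0.06, adjusted p = 0.0691, limma) and 0.14 (SE 0.07, adjusted p = 0.34, limma) did not pass.

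Neurod1, a helix-loop-helix factor of late progenitors and young granule neurons that mature granule neurons keep, overlapped between the groups on both probe sets. On 1426413_at wild type read 10.17, 10.12 and 10.32 and L26 10.22, 10.22 and 10.16. The difference was -0.0033 (SE 0.07, adjusted p = 0.985, limma), and its sign turned under 3 alternatives. On 1426412_at wild type read 9.14, 9.02 and 9.21 and L26 9.08, 9.01 and 8.87, with a difference of -0.14 (SE 0.07, adjusted p = 0.382, limma).

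Sox4, a SoxC transcription factor of committed and young neurons, has 8 probe sets, of which 7 had a higher and 1 a lower mean in L26. The differences ranged from -0.06 to 0.25 and none passed. On the probe set with the highest mean, 1433575_at, wild type read 10.26, 10.30 and 10.60 and L26 10.56, 10.66 and 10.57. Wild type replicate 3 lay within the L26 range there and the other wild type arrays below it. The difference was 0.21 (SE 0.09, adjusted p = 0.256, limma), and without wild type replicate 3 it was 0.32 and passed (adjusted p = 0.0483, limma). The difference did not pass in the other 10 of 11 alternatives. Sox4 is also active in oligodendrocyte precursors and endothelium, whose markers are given below.

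Sox11, the closest relative of Sox4 and a factor on which adult neurogenesis depends, gave the widest disagreement. On 1431225_at wild type read 9.28, 9.55 and 9.76 and L26 7.57, 6.99 and 7.35, groups far apart. The group means were 9.53 ± 0.241 and 7.30 ± 0.293 (SD, n = 3). Their difference was -2.23, with SE 0.15 (limma, adjusted p = 9.41e-05), which kept its call in all 11 alternatives (-2.36 to -2.07 with an array left out). The other 5 probe sets did not pass. On 1436790_a_at wild type read 7.45, 7.27 and 7.54 and L26 7.66, 8.19 and 7.78, higher in all L26 arrays, with a difference of 0.46 (SE 0.13, adjusted p = 0.0914, limma). On 1453125_at wild type read 8.91, 9.09 and 9.30 and L26 9.27, 9.60 and 9.27, overlapping by a little. On 1429372_at the L26 values (7.53, 7.47 and 7.36) lay below the wild type values (7.65, 7.64 and 7.93), with a difference of -0.29 (SE 0.09, adjusted p = 0.115, limma). The remaining probe sets, 1453002_at and 1429051_s_at, had -0.15 and -0.10.

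The differences of the 6 Sox11 probe sets thus spanned 2.68 on the log2 scale, the 3rd widest span among the 4315 genes with at least 3 probe sets, whose median span was 0.17. The spans were 0.31 for Sox4, 0.29 for Dcx and 0.15 for Cd24a. Where on the Sox11 transcript each probe set lies is not given in the files used here, and whether 1431225_at reads the same transcript as the others was not tested. The direction for Sox11 therefore depends on the probe set. The probe set with the highest mean gave 0.28 and the mean of all 6 gave -0.34 (adjusted p = 0.0306 over genes, limma).

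**Figure D3:**
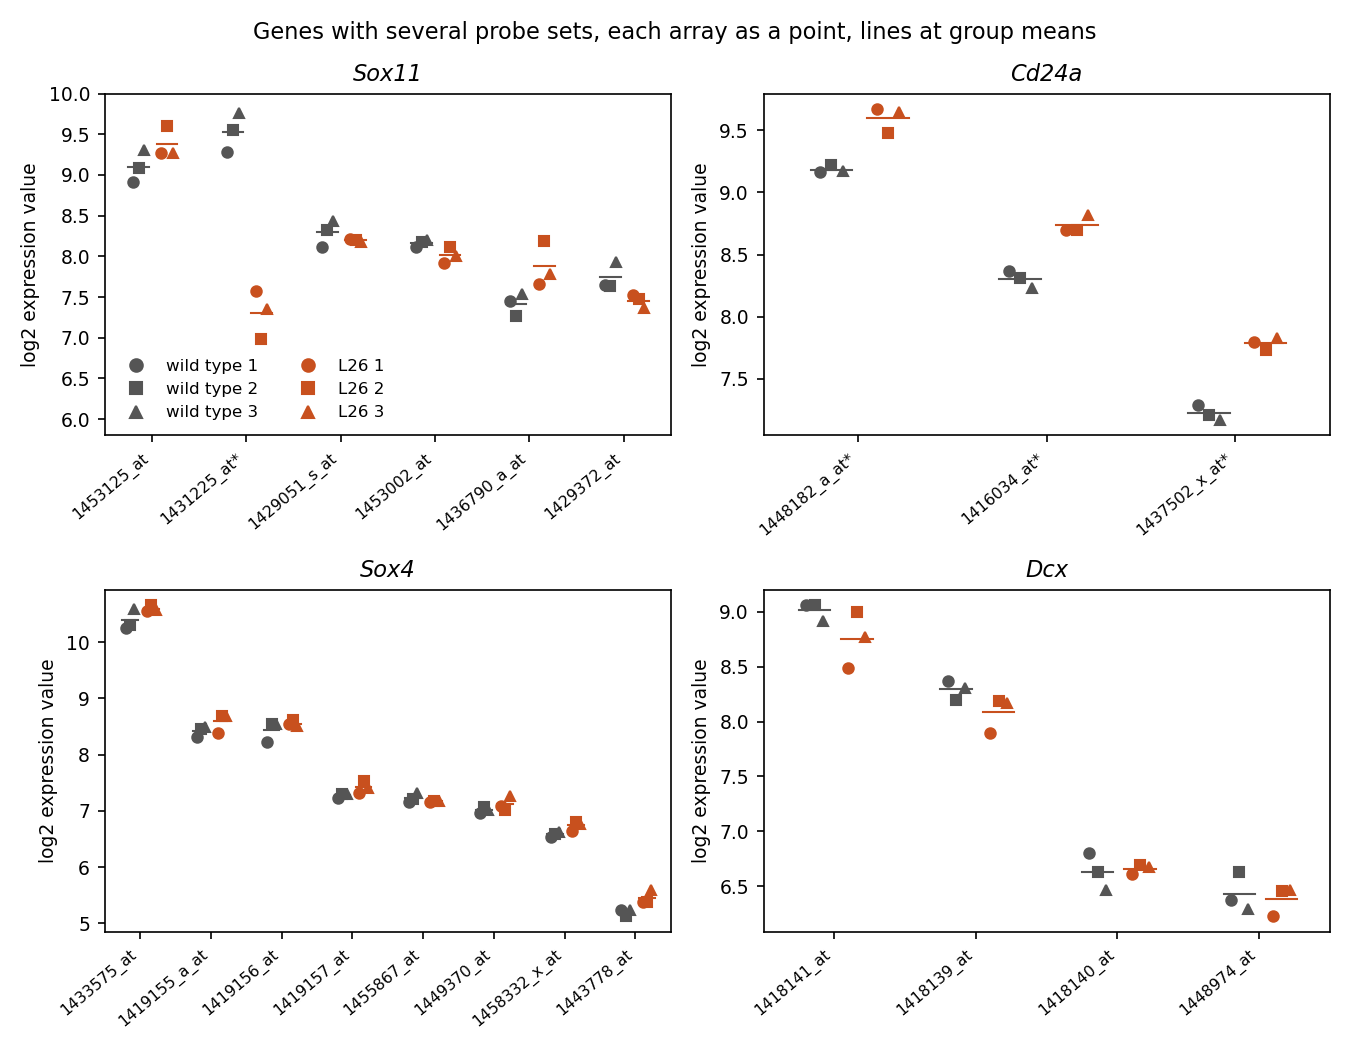
Log2 expression value of each probe set of Sox11, Cd24a, Sox4 and Dcx on the 6 arrays (grey, wild type; orange, L26; symbols by replicate; short lines at group means; asterisk for an adjusted p under 0.05). The L26 arrays lie above wild type on all 3 Cd24a probe sets, while on Sox11 they lie far below on 1431225_at, at 6.99 to 7.57, and above on 1436790_a_at.

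Igfbpl1, a secreted insulin-like growth factor binding protein relative found in neuroblasts, has 2 probe sets. On 1423377_at wild type read 6.94, 6.89 and 6.77 and L26 7.19, 7.18 and 7.06. On the dim 1450960_at wild type read 6.15, 6.11 and 6.40 and L26 6.43, 6.49 and 6.41. All L26 values lay above all wild type values on both; on the second the gap was narrow. The difference of 0.28 on the first missed the threshold over probe sets (SE 0.07, adjusted p = 0.0553, limma) and met it over genes (SE 0.06, adjusted p = 0.044, limma). The call over genes was lost in 9 of 13 alternatives, among them each removal of a single array. On 1450960_at the difference was 0.22 (SE 0.08, adjusted p = 0.176, limma), and without wild type replicate 3 it was 0.31 and passed (adjusted p = 0.0443, limma). That difference did not pass in the other 9 of 10 alternatives.

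Dcx, the microtubule-binding protein that is the usual marker of new neurons, did not pass on any of its 4 probe sets. On the probe set with the highest mean, 1418141_at, wild type read 9.06, 9.06 and 8.92 and L26 8.49, 9.0 and 8.77. L26 replicates 1 and 3 lay below wild type there and L26 replicate 2 within its range. On 1418139_at wild type read 8.37, 8.20 and 8.31 and L26 7.90, 8.19 and 8.17, where L26 replicate 2 lay just below the lowest wild type value. The differences of -0.26 (SE 0.11, adjusted p = 0.268, limma) and -0.21 (SE 0.09, adjusted p = 0.246, limma) were smaller than the range of the L26 arrays. The 2 dim probe sets had 0.027 and -0.05, each with a sign that turned under 2 alternatives.

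Cd24a, a small surface glycoprotein of young neurons, rose on all 3 of its probe sets. On 1448182_a_at wild type read 9.16, 9.22 and 9.17 and L26 9.67, 9.48 and 9.65. On 1416034_at wild type read 8.37, 8.31 and 8.23 and L26 8.70, 8.70 and 8.82. On 1437502_x_at, of a type open to related transcripts, wild type read 7.29, 7.21 and 7.17 and L26 7.80, 7.73 and 7.83. In each case every L26 array lay above every wild type array, with gaps wider than the spread within a group. The differences were 0.42 (SE 0.07, adjusted p = 0.00889), 0.44 (SE 0.06, adjusted p = 0.00572) and 0.56 (SE 0.06, adjusted p = 0.000992), all from limma. The first was lost by a little without L26 replicate 3 (adjusted p = 0.0502, limma) and the other 2 were kept in every alternative run.

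Cd24a is also strong in ependymal cells and choroid plexus, tissue that borders the hippocampus. Of 12 markers of these cells 2 rose (Tmem212 by 0.69 and Ccdc153 by 0.49), 0 fell and 12 had a higher mean in L26, with a median difference of 0.27. Both calls were lost without L26 replicate 3. Their mean level per array was 8.56, 9.05 and 9.13 in wild type and 9.31, 8.76 and 9.54 in L26, so the groups overlapped on this mean. They also overlapped for 9 of the 12 single markers. For the other 3, Tmem212, Ccdc153 and Foxj1, every L26 array lay above every wild type array. Over all genes 24.1% had groups that did not overlap. Dynlrb2 of the same list overlapped, with 7.34, 7.78 and 7.84 in wild type and 8.07, 7.79 and 8.32 in L26. Tmem212 read 7.54, 7.5 and 7.79 in wild type and 8.46, 8.07 and 8.37 in L26, and Ccdc153 7.90, 7.95 and 7.93 against 8.60, 8.25 and 8.40. Foxj1, the regulator of motile cilia, named here after its values were seen, had 6.62, 6.74 and 6.77 against 6.84, 6.87 and 7.02 (0.20, SE 0.07, adjusted p = 0.133 over genes, limma). The part of these cells in the Cd24a difference was not tested.

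Tubb2b, a beta-tubulin of migrating and growing neurons, has 1 probe set of its own, 1452679_at. Wild type read 10.98, 10.95 and 10.90 and L26 11.30, 11.33 and 11.21, without overlap. The group means of 10.94 ± 0.0404 and 11.28 ± 0.0624 (SD, n = 3) differed by 0.34, with SE 0.06 (limma, adjusted p = 0.0136). The call over probe sets was lost without wild type replicate 3 (adjusted p = 0.052, limma) or without L26 replicate 2 (adjusted p = 0.062, limma). Its near-identical paralog Tubb2a had 0.09 on its _s_at probe set (SE 0.06, adjusted p = 0.421 over genes, limma) and 0.23 on the other, and the pan-neuronal Tubb3 had -0.06 (adjusted p = 0.649 over genes, limma).

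Stmn1 (stathmin 1), which binds free tubulin and is abundant in progenitors and neurons, moved the other way. On 1415849_s_at, open to related transcripts, wild type read 13.73, 13.79 and 13.72 and L26 13.42, 13.47 and 13.48. On 1448113_at wild type read 10.46, 10.53 and 10.32 and L26 10.15, 10.21 and 10.01. All L26 values lay below all wild type values on both. The differences were alike, -0.29 (SE 0.05, adjusted p = 0.0194, limma), which passed, and -0.31 (SE 0.08, adjusted p = 0.0561, limma), which did not. The first lost its call over probe sets without any single array except wild type replicate 3. The second passed without wild type replicate 3 (adjusted p = 0.0498, limma) and under 4 further alternatives.

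Set in the order of the lineage, the differences followed no single direction. The progenitor genes Neurog2 and Eomes averaged 5.87, 6.005 and 6.0 on the wild type arrays and 6.25, 6.30 and 6.25 on the L26 arrays, a difference of 0.31. Neurod1, Sox4 and Sox11 averaged 9.78, 9.84 and 10.07 in wild type and 10.02, 10.16 and 10 in L26, which overlapped, with a difference of 0.16. That value became -0.09 with the average over each gene's probe sets in place of the 1 with the highest mean. In the value of 0.16 Sox11 is read by 1453125_at, although 1431225_at had the higher wild type mean. Igfbpl1, Dcx and Cd24a averaged 0.14 higher in L26 without overlap (8.39, 8.39 and 8.29 against 8.45, 8.55 and 8.49), although Dcx and the other pair had opposite signs. Tubb2b and Stmn1 nearly cancelled, at 0.023. These stage means are descriptions without a test.

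Other genes of the lineage were taken from lists written with earlier results of these data known. Of 17 measured stem and progenitor genes 3 rose, 0 fell and 15 had a higher mean, with a median difference of 0.12 beside 0.01 for all genes. Fabp7, a fatty acid binding protein of radial glia, rose by 0.91 (SE 0.08, adjusted p = 0.000497, limma). Its wild type arrays read 10.84, 10.68 and 10.71 and its L26 arrays 11.52, 11.81 and 11.64. Prom1, the stem cell surface protein prominin-1, rose by 0.57 (SE 0.09, adjusted p = 0.0109, limma), and Nes, the intermediate filament nestin, by 0.26 (SE 0.05, adjusted p = 0.0187, limma). The other Nes probe sets had 0.08 and 0.017, and the stem cell factor Sox2 had 0.29 (SE 0.08, adjusted p = 0.0807, limma). The call of Fabp7 was kept in each of 11 alternatives. That of Prom1 was lost without L26 replicate 3 (adjusted p = 0.0515, limma), and that of Nes without wild type replicate 1 or 2 or L26 replicate 2 or 3. Without L26 replicate 3, 1 gene of this list passed.

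No cell division gene passed. Of 15 measured, 0 passed in limma (1 at an unadjusted p of 0.05), and 10 of the 15 were dim. Over all genes 3698 of 18193 had an unadjusted p under 0.05. Mki67, the proliferation antigen, had 5.66 in wild type and 5.59 in L26 (adjusted p = 0.52, limma), and the smallest p was that of Mcm2, a replication licensing helicase subunit, at 0.14 (adjusted p = 0.24, limma). Of 26 other immature neuron genes 0 passed in limma either, with a median difference of 0.018. At an unadjusted p of 0.05, 8 of the 26 did, beside the 3698 of all 18193 genes. Of the 26, 5 were dim, while Basp1 (mean 13.88), Tubb2a (13.77) and Stmn3 (13.61) lay far above the upper quartile of all probe sets (9.06). The part of mature neurons in the values of this list was not tested, so its count does not describe young neurons alone. In this list Neurod2, a helix-loop-helix factor of maturing neurons, had the smallest p (0.21, SE 0.06, adjusted p = 0.0678), Calb2, the calretinin gene of young granule neurons, had 0.0067 (adjusted p = 0.969), and Sox12, the remaining SoxC gene, had -0.04 (adjusted p = 0.771, limma). With an intensity trend and a robust prior 4 of the 26 passed, 3 higher and 1 lower.

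Of 12 markers of mature granule cells 3 rose, 1 fell and 8 did not pass. Lct rose by 0.58 (SE 0.08, adjusted p = 0.00627, limma) and C1ql2, a secreted synapse organiser of mossy fibres, by 0.43 (SE 0.06, adjusted p = 0.0065, limma). Tdo2, a tryptophan dioxygenase, rose by 0.33 (SE 0.07, adjusted p = 0.0329, limma), while Plk5 fell by 0.35 (SE 0.08, adjusted p = 0.0325, limma). The other Tdo2 probe sets had 0.25 and 0.13. Prox1, the homeobox factor that granule neurons carry from the progenitor stage on, had 0.19 (SE 0.08, adjusted p = 0.196, limma), and its other probe sets 0.23 and -0.08. The list mean lay between 9.32 and 9.34 in wild type and between 9.39 and 9.43 in L26. Without wild type replicate 1 or 2 or L26 replicate 1 or 2, 2 of the 12 passed. Lct and C1ql2 kept their calls in each of 11 alternatives. The fall of Plk5 lost its call without any single array except L26 replicate 3. The call of Tdo2 was lost with any single array left out.

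Several members are also active in glia and vessels, and the markers of these cells differed between the same arrays. Of 12 vascular markers 8 rose and 0 fell, led by Cldn5 (0.95), Rgs5 (0.62), Pdgfrb (0.68) and Kdr (0.63), and the list mean was 8.71 to 8.77 in wild type and 9.17 to 9.25 in L26. Of 11 markers of myelinating oligodendrocytes 8 rose and 0 fell (Mal 0.66, Cnp 0.41, Mobp 0.41 and Opalin 0.41 with the smallest p), at 11.34 to 11.43 against 11.61 to 11.87. Of 11 oligodendrocyte precursor markers 4 rose and 0 fell (Olig2 0.33, Sox10 0.32, Olig1 0.31 and Gpr17 0.57), at 8.64 to 8.69 against 8.69 to 8.91. Dim were 0 of the 12 vascular, 0 of the 11 myelin and 1 of the 11 precursor markers. Without L26 replicate 2, 5 vascular, 1 myelin and 0 precursor markers passed. The removal of any array except L26 replicate 1 left 1 to 3 myelin and 0 to 2 precursor markers. Of the 12 markers named here, Cldn5, Rgs5, Pdgfrb, Kdr and Mal kept their calls in each of 11 alternatives, and the others lost theirs with at least 1 array left out. The part of these cells in the differences of Cd24a, Tubb2b, Sox4, Fabp7, Prom1 and Nes was not tested.

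Of 10 astrocyte markers S100b fell (-0.28) and 9 did not pass, with list means of 11.59 to 11.63 in wild type and 11.62 to 11.69 in L26. The 1 astrocyte call was lost without wild type replicate 1 or 2 or L26 replicate 2 or 3. Of 9 microglia markers C1qb (0.29), C1qc (0.40) and Csf1r (0.22) rose, P2ry12 fell (-0.30) and 5 did not pass, at 9.87 to 9.99 against 9.96 to 10.03. With any array left out, 0 or 1 of them passed. Of 10 interneuron markers Reln (-0.37) and Pvalb (-0.30) fell, at 10.93 to 10.96 against 10.85 to 10.88, and with any array left out 0 or 1 passed. Of 6 markers of neuroblasts from the ventricular zone, which a dissection that reached the ventricle wall could carry, 0 passed in limma. At an unadjusted p of 0.05, 0 passed either, beside 3698 of all 18193 genes. Sp8 had the smallest p among these 6 (0.07, adjusted p = 0.517), and their mean was 6.91 to 6.99 in wild type and 6.86 to 7.03 in L26.

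**Figure D4:**
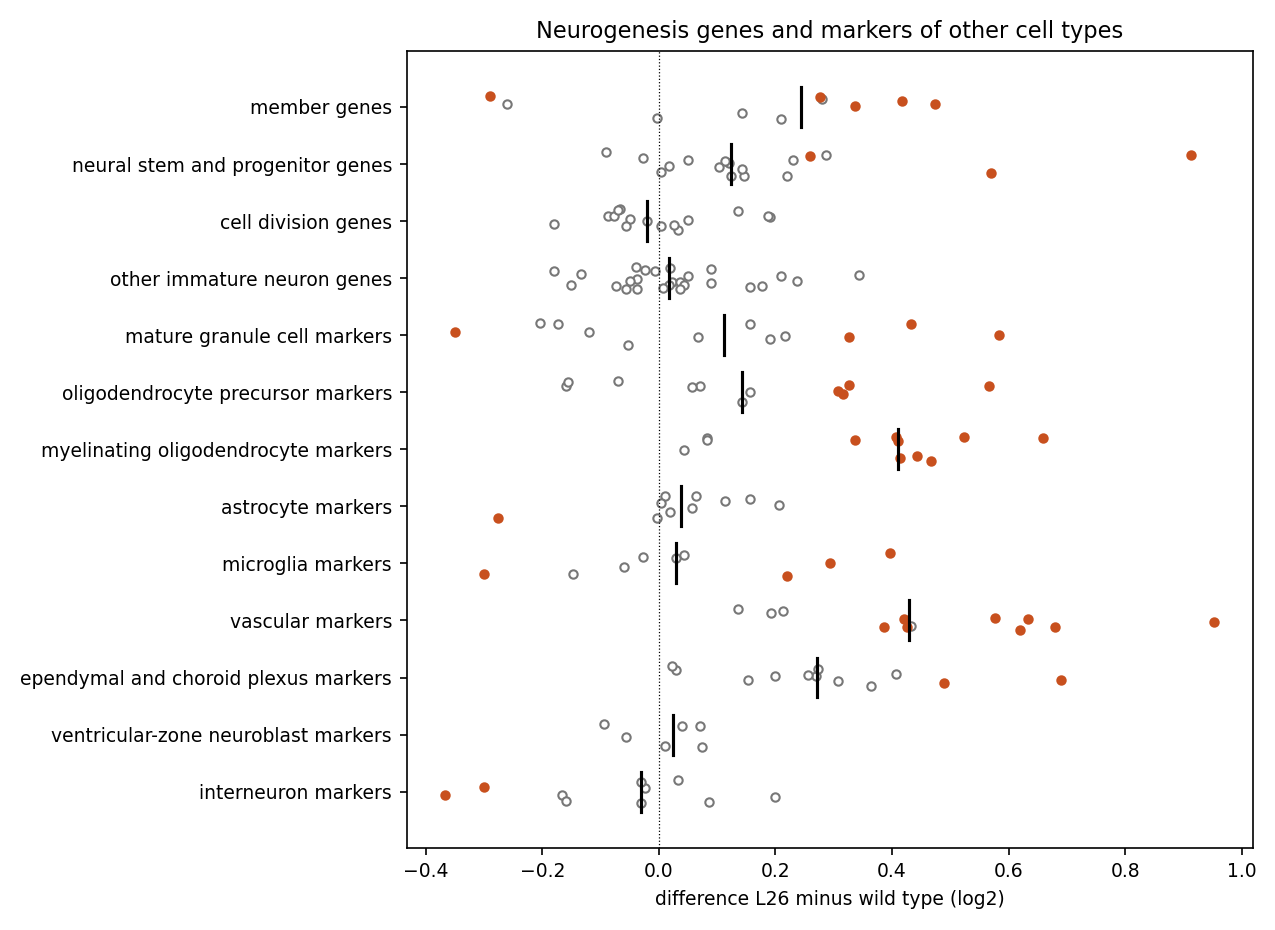
Difference L26 minus wild type (log2) of the member genes, of the 3 other neurogenesis lists and of 9 marker lists of other cell types, 1 point per gene on its probe set of highest mean, filled where the adjusted p over genes was under 0.05, with a vertical line at the list median (points are spread vertically for legibility). The member median is 0.24, the cell division genes centre at -0.02 and the other immature neuron genes at 0.018, while vascular and myelin markers centre at 0.43 and 0.41.

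Wild type replicate 3 was the highest wild type array on all 6 Sox11 probe sets, on 5 of 8 Sox4 probe sets and on both of Neurod1, but the lowest on that of Sox12 (8.86, 8.78 and 8.75). It was also the lowest on 3 of 4 Dcx probe sets, 2 of 3 of Cd24a and both of Stmn1. Probe sets of a gene read the same RNA and are not independent. Without that array, 9 of the 31 member probe sets passed, 6 higher and 3 lower, where 1229 of all 45037 probe sets passed in place of 1764.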

How the data were processed

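Hippocampal total RNA, 4 µg per array according to the labels, was read on 6 arrays. Per the submitters' processing notes the authors used RMA and affy, with no version stated there. The deposited log2 values have 2 decimals and range from 4.20 to 15.02 over the probe sets tested, and all per-sample columns were used. The 64 AFFX controls were left out. The platform annotation gives 34945 probe sets 1 symbol, 932 several and 9160 none.

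The test was limma 3.58.1 under R 4.3.3 (lmFit, eBayes, two-sided, Benjamini-Hochberg over 45037 probe sets or 18193 genes, threshold 0.05), with no filter on level. The code was tested on simulated data. Values after ± are SDs over 3 arrays, SEs come from the fit, and the number of arrays limits the precision. Members and lists were chosen with earlier results of these data known. Named are all members, up to 4 genes with the smallest p of each list among those past the threshold (otherwise 1), and Sox2, Nes, Mki67, Prox1, Calb2, Tubb2a, Tubb3, Sox12 and Kcnip3. Tubb2b and Tubb2a, and probe sets ending in _x_at or _s_at, are open to related transcripts.

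Alternatives were a block on replicate number, leaving out arrays singly, a repeated quantile normalization, median centring, keeping only probe sets above the dimmest 40%, eBayes with trend and robust set, the mean of a gene's probe sets, removal of _x_at and _s_at probe sets, a threshold of 0.1 and another limit for dim.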

Additional observations from a re-analysis of the deposited data

How the results depend on the processing

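The 7 member probe sets past the threshold became 11 (8 higher, 3 lower) at a threshold of 0.1 and 5 to 9 with an array left out, and stayed at 7 or 8 under the other settings. At a threshold of 0.1, 3167 of all 45037 probe sets passed in place of 1764. The 5 member genes ranged from 2 to 5 with an array left out and from 4 to 6 otherwise. Over all features, calls fell from 1764 to between 810 and 1430 probe sets, and from 945 to between 401 and 696 genes, when an array was left out. Same-numbered samples did not deviate together (correlations of -0.038, -0.07 and 0.154), so the numbers were not taken to pair them. With the replicate number as a block 7 member probe sets and 5 member genes passed, beside 1330 of all 45037 probe sets and 635 of all 18193 genes. Under the block the calls numbered 2 for stem and progenitor genes (3 without it), 3 for granule cell (4), 2 for precursor (4), 7 for myelin (8), 1 for microglia (4), 7 for vascular (8) and 0 for interneuron markers (2). With it Stmn1 1415849_s_at (limma, adjusted p = 0.0517), Nes (0.0588) and Plk5 (0.0709) no longer passed, and Stmn1 1448113_at did (0.0374). Of the 28 list genes named as past the threshold, 9 lost their call under the block and 20 with at least 1 array left out, and 8 kept it in every alternative run.

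Signs turned only for members near 0 and for Sox11. With an array left out Neurod1 1426413_at ranged from -0.045 to 0.055, Dcx 1418140_at from -0.055 to 0.11 and Dcx 1448974_at from -0.118 to 0.052. Neurod1 1426413_at had 0.055 without wild type replicate 3, 0.017 without L26 replicate 3 and 0.013 after repeated normalization, at both levels. Dcx 1418140_at had -0.055 without wild type replicate 3 and -0.0033 with centred arrays. Dcx 1448974_at had 0.052 without wild type replicate 2 and 0.032 without L26 replicate 1. Sox11 had -0.34 with the mean of its probe sets, which 1431225_at enters by construction, as it does the neuroblast factor mean of -0.0901. The lower quartile as limit made 3 members dim in place of 8.

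Without the dimmest probe sets 1 other immature neuron gene and 2 astrocyte markers passed. With an intensity trend 4 of these neuron genes, 2 astrocyte and 4 interneuron markers did, and after repeated normalization 1 interneuron marker. With an array left out the calls ranged from 1 to 3 for stem and progenitor genes, 0 to 1 for other immature neuron genes, 2 to 3 for granule cell, 0 to 4 for precursor, 1 to 8 for myelin, 0 to 1 for astrocyte, 0 to 1 for microglia, 5 to 8 for vascular, 0 to 2 for ependymal and 0 to 1 for interneuron markers. Apart from these, the cause of such changes was not tested. Dim probe sets limit what can be said of Neurog2 and Eomes.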
